A study of Mus musculus with 3 samples.

Results

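Thyroid-like epithelial cells were found in all 3 single-cell libraries of mouse embryonic thymus, and 113 of the 123 came from a single library, the one labelled Tbx1neo2/neo2. A cell was counted when it had at least 1 unique molecular identifier (UMI, the tag that marks 1 captured RNA molecule) of *Epcam*, a surface protein of epithelial cells. It also needed UMIs of at least 3 of the 5 thyroid markers *Foxe1*, *Nkx2-1*, *Pax8*, *Iyd* and *Hhex*, and 1 of these had to be *Pax8* or *Nkx2-1*. Cells entered the count with at least 200 genes, at least 2000 UMIs, under 20% mitochondrial UMIs and under 5% hemoglobin UMIs, which 16365 cells met. The other 7983 *Epcam*-positive cells were the cells of comparison, 1103 of them in the library labelled Tbx1neo2/neo2. These 6 genes chose the cells, so their levels below are descriptions, as are all differences between the chosen cells and the rest.

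The libraries were made from thymic lobes of C57BL/6 embryos at E13 to E13.5, with 1 library each of wild type (WT), Tbx1neo2/neo2 and Foxn11089/1089. The neo2 allele holds a neomycin cassette in an intron of *Tbx1*, a transcription factor of the pharyngeal region, and lowers its expression in the mouse models that carry it. The 1089 allele is a small deletion in *Foxn1*, the transcription factor that thymic epithelium depends on. How many embryos went into each library is not given in the sources used here. Each genotype was a single library without a replicate, so no test was run, and the 95% intervals in brackets cover counting error only. *Tbx1* UMIs over all kept cells were 1.48 counts per 1000000 UMIs (CPM) in WT, 5.04 in the library labelled Tbx1neo2/neo2 and 6.38 in the Foxn11089/1089 library. *Tbx1* per UMI was thus not lower in the library that bears its name, though the libraries differ in their mix of cells. Of the 642 *Tbx1* UMIs there, 162 were in 58 *Epcam*-positive cells with *Nkx2-1* described further on, and without these, a choice made after seeing the data, the level was 3.86 CPM (3.52 to 4.22). Counts at the 3′ end do not measure the cassette itself.

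The thyroid begins as a bud in the floor of the pharynx, while the thymus and parathyroid form from the pouches at its sides. *Nkx2-1*, *Pax8*, *Foxe1* and *Hhex* encode transcription factors that are found together in few tissues other than the thyroid bud, where they keep the precursors alive and later switch on the genes of hormone synthesis. *Iyd* encodes the deiodinase that recovers iodide from iodotyrosines. Functional differentiation comes later than the bud: thyroglobulin (*Tg*) is stored in follicles, iodide enters through *Slc5a5*, and *Duox2* with its maturation factor *Duoxa2* makes the hydrogen peroxide that hormone synthesis needs.

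The promoters of 4 genes are shown because their transcripts bear on this program. *Duoxa2* and *Duox2* form a divergent pair, and *Prlr* was among the genes set farthest apart from the other *Epcam*-positive cells. *Sftpb* is a lung gene with UMIs in thyroid-like but not in other *Epcam*-positive cells of the same library. Each promoter is the 250 bases before the annotated start, from RefSeq on GRCm38.p6, on the strand of the gene and 5′ to 3′. Capitals mark CTCAAG or its reverse complement CTTGAG, the core letters commonly given for binding of NKX2-1. *Duoxa2* lies at chr2:122298650-122298899 (plus strand), *Duox2* at chr2:122298228-122298477 (minus), *Sftpb* at chr6:72304360-72304609 (plus) and *Prlr*, the first of its 3 windows, at chr15:10176988-10177237 (plus).
Duoxa2: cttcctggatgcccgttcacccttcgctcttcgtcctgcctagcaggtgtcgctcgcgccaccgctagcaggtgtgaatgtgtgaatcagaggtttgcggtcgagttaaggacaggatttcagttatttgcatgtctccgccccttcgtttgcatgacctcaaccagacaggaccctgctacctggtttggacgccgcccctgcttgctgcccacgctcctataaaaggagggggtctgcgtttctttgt
Duox2: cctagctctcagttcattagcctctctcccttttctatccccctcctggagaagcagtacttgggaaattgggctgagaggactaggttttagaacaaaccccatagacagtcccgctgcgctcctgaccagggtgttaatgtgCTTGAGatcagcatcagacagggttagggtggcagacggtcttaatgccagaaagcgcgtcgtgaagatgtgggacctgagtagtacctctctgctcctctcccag
Sftpb: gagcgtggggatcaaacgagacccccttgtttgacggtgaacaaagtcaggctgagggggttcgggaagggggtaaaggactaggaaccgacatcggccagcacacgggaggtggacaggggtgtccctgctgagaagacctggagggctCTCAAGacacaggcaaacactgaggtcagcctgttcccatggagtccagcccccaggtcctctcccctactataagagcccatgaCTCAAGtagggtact
Prlr: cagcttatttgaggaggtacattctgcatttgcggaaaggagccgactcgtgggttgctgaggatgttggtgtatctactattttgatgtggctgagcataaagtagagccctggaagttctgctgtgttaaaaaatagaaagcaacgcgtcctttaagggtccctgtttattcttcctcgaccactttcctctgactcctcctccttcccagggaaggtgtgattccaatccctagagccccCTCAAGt

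The start sites of *Duoxa2* and *Duox2* lay 673 bases apart. The *Duox2* window held 1 match, 106 bases before the start, and the *Duoxa2* window none. *Sftpb* held matches 100 and 15 bases before its start, and *Prlr* held 1 at 7 bases. Of all 32851 windows of this length, 13.3% held the 6 letters on either strand. A match of these letters is a description and not a binding site, and a window without them says nothing of the factor.

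Thyroid-like cells were 113 of 1216 *Epcam*-positive cells in the library labelled Tbx1neo2/neo2, a share of 9.29% (7.72 to 11.1%). WT had 4 of 2445 (0.164%, 0.0446 to 0.418%) and the Foxn11089/1089 library 6 of 4445 (0.135%, 0.0496 to 0.294%). The share in the library labelled Tbx1neo2/neo2 was 56.8 times that of WT (21.6 to 212). It was 68.8 times that of the Foxn11089/1089 library (30.7 to 192). As shares of all kept cells the ratios were 39.2 (14.9 to 146) and 41.2 (18.3 to 115). Depth differed too: other *Epcam*-positive cells had a median of 45352 UMIs in this library, 17000 in WT and 20263 in the Foxn11089/1089 library. With a random draw of 2000 UMIs per cell the shares were 8.06%, 0.216% and 0.121%, from 51, 3 and 4 cells. At 10000 UMIs, with shallower cells left out, they were 11.4%, 0.0501% and 0.106%, from 105, 1 and 4. That step dropped 3 of the 4 thyroid-like cells of WT and 2 of the 6 of the Foxn11089/1089 library for their depth alone. *Tbx1* per UMI over all kept cells was not lower in this library than in WT, though the cell mixes differ. Whether the genotype or another property of the single library set the share cannot be told apart, since each genotype has 1 library, and how much neighbouring tissue came with the lobes is not given in the sources used here.

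The cells of the 3 libraries differed in sex as well as in number. Among the 108 thyroid-like cells with at least 10000 UMIs in the library labelled Tbx1neo2/neo2, 100 had at least 2 UMIs of Y-linked genes (male-type) and 1 had at least 2 of *Xist* (female-type), so 99.0% of those assigned to 1 type were male-type (94.6 to 99.97%). Another 1 had both and 6 neither. The other *Epcam*-positive cells of the same library held 715 male-type and 217 female-type cells, or 76.7% male-type (73.9 to 79.4%). All 4 such thyroid-like cells of the Foxn11089/1089 library were female-type, while 78.6% of its other *Epcam*-positive cells were male-type. The 1 such cell of WT was male-type. The part of single embryos in the shares was not tested.

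The 5 markers that chose the cells were mostly found together or singly. In the library labelled Tbx1neo2/neo2, 816 *Epcam*-positive cells had none of them, 265 had 1, 22 had 2, 1 had 3, 12 had 4 and 100 had all 5. WT had 2 cells with 4 and 2 with 5, and the Foxn11089/1089 library had 2 and 4. The only member with 3 markers had 5 marker UMIs among 69563, a single *Epcam* UMI and 9 UMIs of *Ptprc*, the pan-leukocyte phosphatase CD45. The 12 members with 4 markers had a median of 44.5 marker UMIs. The 22 cells just outside, with 2 markers, had a median of 4, and 8 of them had at least 3 *Ptprc* UMIs.

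**Figure D1:**
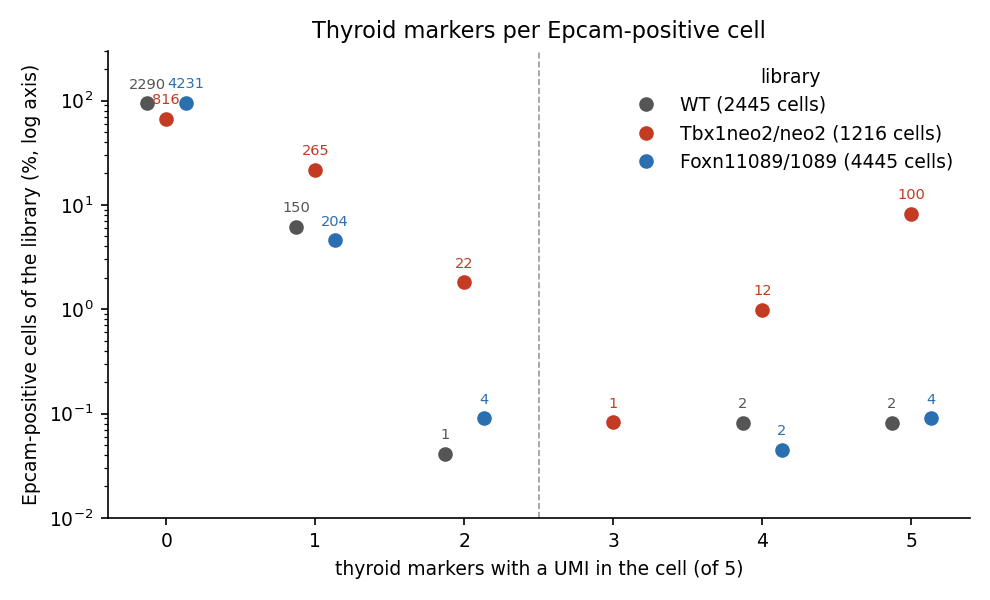
Share of *Epcam*-positive cells (percent, log axis) with UMIs of 0 to 5 of the thyroid markers, per library; the number beside each point is the count of cells and the dashed line marks the limit of 3 markers. In the library labelled Tbx1neo2/neo2 the counts fall from 816 with none to 1 with 3 and then climb to 100 with all 5.

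Depth did not separate these cells from the others of their library. In the library labelled Tbx1neo2/neo2 the thyroid-like cells had from 2888 to 228416 UMIs with a median of 45204, against a median of 45352 in its other *Epcam*-positive cells. They held 7058762 UMIs in all, against 46463 in the 4 cells of WT and 152696 in the 6 of the Foxn11089/1089 library, and the precision of each value follows these sums. Their median mitochondrial share was 5.42%, against 5.66%. Likely doublets, the barcodes with the highest Scrublet scores, were 3 of the 113 (2.65%), against 5.89% of the others. From 17 to 28 barcodes were shared between any pair of libraries, and no thyroid-like barcode was thyroid-like in another library. In 5 of the 113 cells at least 3 UMIs of *Ptprc*, *Pecam1* (endothelium), *Pdgfra* (mesenchyme) or *Foxn1* were found, against 826 of 1103 (74.9%) of the comparison cells. *Foxn1*, a gene of thymic epithelium itself, reached 3 UMIs in 501 of the 1103. *Ptprc* did in 198, *Pdgfra* in 148 and *Pecam1* in 124, and a cell can count for more than 1 gene.

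*Foxe1* (ENSMUSG00000070990, mm10 chromosome 4, 46343609 to 46346412), the forkhead factor of the thyroid bud, was found in all 113 thyroid-like cells of the library labelled Tbx1neo2/neo2. Its lowest, median and highest levels per cell were 14.4, 495 and 1156 CPM. Over summed UMIs it stood at 479 CPM (463 to 495) against 0.272 CPM in the 1103 other *Epcam*-positive cells, where 13 cells had a UMI. *Pax8* (ENSMUSG00000026976, chromosome 2, 24420560 to 24475599), a paired-box factor of thyroid and kidney, was found in 111 of the 113 cells, with 0, 274 and 749 CPM as lowest, median and highest. It stood at 280 CPM (268 to 293) against 0.145 CPM. Both genes were at most a trace outside the chosen cells, in the direction the rule set.

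*Nkx2-1* (ENSMUSG00000001496, chromosome 12, 56531958 to 56536908), the homeobox factor shared by thyroid, lung and forebrain, was found in 112 cells at 0, 438 and 1035 CPM as lowest, median and highest. Its summed level was 446 CPM (430 to 461) against 11.7 CPM in the other cells. *Hhex* (ENSMUSG00000024986), a homeobox factor of the endoderm that blood and endothelial precursors also use, was found in all 113 cells and stood at 458 CPM against 11.5 CPM. It was also found in 160 of 188 cells of this library with at least 3 *Ptprc* and no *Epcam* UMIs (85.1%), so that *Hhex* alone does not mark these cells. *Iyd* was found in 102 cells and stood at 185 CPM against 0.218 CPM. *Epcam* itself was 845 CPM against 458 CPM, a log2 ratio of 0.88 (0.84 to 0.92), so the 2 sets of cells differed less in it than in any of the 5 markers. Against the 656 comparison cells without a UMI of *Pdgfra*, *Ptprc* or *Pecam1*, the *Epcam* log2 ratio was 0.34.

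The thyroid-like cells of the other libraries were chosen by the same genes, so their marker counts are a description. The 4 WT cells, of 4153, 4910, 7578 and 29822 UMIs, had 2, 2, 7 and 15 UMIs of *Foxe1* and 1, 5, 2 and 17 of *Nkx2-1*. *Pax8* had 0, 1, 2 and 10 UMIs in them. The 6 cells of the Foxn11089/1089 library, of 5644, 7208, 19023, 24696, 29041 and 67084 UMIs, had 9, 7, 21, 7, 23 and 39 UMIs of *Foxe1*. In both libraries the cell with the most UMIs in all also had the most *Foxe1* UMIs.

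Summed over cells, *Foxe1* was 560 CPM in WT (366 to 820) and 694 CPM in the Foxn11089/1089 library (568 to 840), 1.17 times (0.763 to 1.72) and 1.45 times (1.18 to 1.76) the level in the library labelled Tbx1neo2/neo2. *Pax8* was 280 CPM in WT (149 to 479) and 268.5 CPM in the Foxn11089/1089 library (193 to 364), 0.959 times (0.686 to 1.31) the level of the library labelled Tbx1neo2/neo2 in the latter. *Nkx2-1* stood at 1.21 times (0.780 to 1.79) and 0.926 times (0.710 to 1.19) that level. *Iyd* had 9 UMIs in the 6 Foxn11089/1089 cells, where the level of the library labelled Tbx1neo2/neo2 would give 28.2, a ratio of 0.319 (0.146 to 0.608). *Tg* and *Tshr* had no UMI in either library, but 0.797 and 0.434 UMIs would be awaited in WT at that level and 2.62 and 1.43 in the Foxn11089/1089 library, so their absence was not detectable at this depth.

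**Figure D2:**
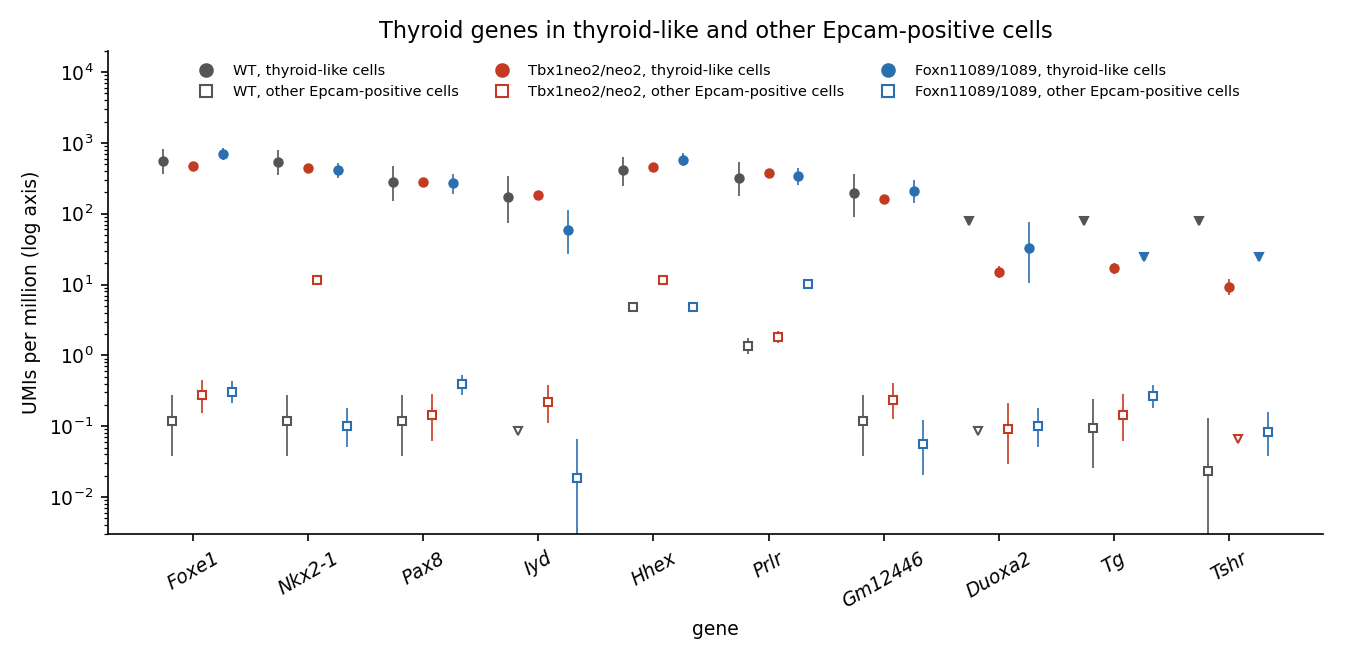
Levels of 10 genes in CPM (log axis) in thyroid-like cells (filled circles) and other *Epcam*-positive cells (open squares) of the 3 libraries. Bars are 95% intervals of the summed UMIs, and a triangle marks the upper bound where a gene had no UMI. For *Foxe1*, *Pax8*, *Prlr* and *Gm12446* the filled points of all 3 libraries lie above the open ones.

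Of the 12 genes of hormone synthesis and of the response to thyrotropin (TSH), 9 reached the minimum of 30 UMIs over both sets of cells. Of these 3 were at least 2-fold higher in thyroid-like cells (*Tg*, *Tshr* and *Duoxa2*), 4 at least 2-fold lower (*Duox1*, *Duoxa1*, *Slc5a8* and *Ano1*) and 2 between. Over all 14494 genes with 30 UMIs, 7.47% were at least 2-fold higher and 19.4% at least 2-fold lower, with a median log2 ratio of -0.01. The list's median was -0.37.

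*Tg* (ENSMUSG00000053469, chromosome 15, 66670753 to 66850721), the protein on which hormone is made, had 121 UMIs in 42 of the 113 thyroid-like cells and 8 in the 1103 others. Its level was 17.1 CPM (14.2 to 20.5) against 0.145 CPM, a log2 ratio of 6.88 (5.86 to 8.13). With a random draw of 10000 UMIs per cell, 6.48% of 108 thyroid-like cells (2.65 to 12.9%) and none of 1040 others had a *Tg* UMI. *Tg* UMIs were also in 16 of 375 red blood cell barcodes of this library (4.27%), which should lack the gene, at a median depth of 18938 UMIs and a level of 2.19 CPM. That share lies within the interval of the thinned one, but the barcodes were not thinned. The 2 shares are thus at unlike depths and cannot tell whether the share of cells differs. The level of 17.1 CPM lies above 2.19 CPM. *Prlr* had no UMI in the same barcodes, and where their *Tg* UMIs came from was not tested.

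*Tshr* (ENSMUSG00000020963, chromosome 12), the receptor of TSH, had 66 UMIs in 39 thyroid-like cells and none in the other 1103 or in the red blood cell barcodes. Against 3 UMIs as the floor for the other cells, it was at least 172-fold higher. *Duoxa2* (ENSMUSG00000027225, chromosome 2, 122298900 to 122302885), whose promoter is printed above, had 108 UMIs in 58 thyroid-like cells and 5 in 2 of the others. It stood at 15.3 CPM (12.6 to 18.5) against 0.0907 CPM, a log2 ratio of 7.40 (6.13 to 9.05). Its divergent neighbour *Duox2* had 22 UMIs in 21 cells against 5, under the minimum, with a log2 ratio of 5.10 (3.67 to 6.86).

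The paralogous pair went the other way. *Duox1* had no UMI in thyroid-like cells and 61 in the others, and its maturation factor *Duoxa1* had 5 against 568 (log2 ratio -3.86, -5.49 to -2.63). *Slc5a5*, the sodium iodide symporter, had 6 UMIs against 65, or 0.850 and 1.18 CPM. *Slc26a4*, the anion exchanger pendrin, had 1 UMI against 0. *Gnas*, the G protein that carries the TSH signal and is used by most cells, was 1368 CPM against 1349 (log2 ratio 0.02).

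The thyroid-like cells differed among themselves in these late genes, but depth differed with them. The 42 cells with *Tg* had a median of 76136.5 UMIs and the 71 without it 37540. *Tg*, *Tshr* and *Duoxa2* were all present in 17 cells, with a median of 99942 UMIs, and all absent in 32, with a median of 36617.5. At 10000 UMIs per cell, 7 of 108 kept *Tg*, 4 *Tshr* and 21 *Duoxa2*, counts too low to split the cells into classes. No single cell held the genes: the cell with most *Tg* had 13 UMIs, or 10.7% of the total.

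A list of 12 genes held those that carry, convert, bind or sense thyroid hormone and, with them, the receptor of another hormone, *Prlr*. Of these, 9 were measured at 30 UMIs, with 2 at least 2-fold higher, 4 lower and 3 between (median log2 ratio -0.82). *Prlr* (ENSMUSG00000005268), the prolactin receptor, was 1 of the 2 higher genes, though it neither carries nor converts thyroid hormone. It had 2627 UMIs in 105 cells and 372 CPM against 1.83 CPM, a log2 ratio of 7.67 (7.38 to 7.97). It was 323 CPM in the WT cells and 341 CPM in the Foxn11089/1089 cells.

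The hormone-converting deiodinases were near zero. *Dio1*, *Dio2* and *Dio3* had 1, 1 and 2 UMIs in 113 cells. The hormone receptor *Thra* was 45.3 CPM against 42.4 CPM (log2 ratio 0.10), and *Crym*, which binds the hormone in the cytosol, had 4 UMIs against 216. Of the other lower genes, *Slc16a10*, the transporter MCT10, had 11 UMIs against 593.

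By size alone, 25 genes outside the rule had the highest ratios among genes found in at least 25% of the thyroid-like cells. They were, in order, *Tshr*, *Gjb1*, *Gm12446*, *Slc4a5*, *Tbx3os2*, *Kcnj16*, *Asgr1*, *Prlr*, *Sall1*, *Plekhd1*, *Kcnh3*, *Igsf1*, *Duoxa2*, *Amdhd1*, *Folr1*, *Tg*, *Csmd2*, *Fam189a2*, *Ackr1*, *Asb9*, *D630039A03Rik*, *B3gat2*, *BC021891*, *Npy* and *Rmst*. Several encode transport and membrane proteins. *Slc4a5*, a sodium bicarbonate cotransporter, had 505 UMIs in 93 cells against 12 (71.5 and 0.218 CPM, log2 ratio 8.36, 7.54 to 9.32). *Kcnh3*, a voltage-gated potassium channel, had 567 against 24, and *Kcnj16*, an inward rectifier, 50 against 1. *Gjb1*, the gap junction protein connexin 32, had 61 UMIs in 39 cells and none in the others, at least 159-fold higher.

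Other genes of the 25 encode regulators and surface receptors. *Sall1*, a zinc finger factor of kidney and limb development, had 693 UMIs in 107 cells against 28 (98.2 and 0.508 CPM, log2 ratio 7.59, 7.05 to 8.20). *Asgr1*, the hepatocyte asialoglycoprotein receptor, had 468 in 90 cells against 15. *Igsf1*, an immunoglobulin superfamily protein whose loss in humans causes central hypothyroidism, had 121 UMIs in 61 cells against 5. *Folr1*, a folate receptor, had 98 against 6, and *Npy*, neuropeptide Y, 219 in 69 cells against 31. *Rmst*, a long noncoding RNA, had 698 UMIs in 102 cells against 105.

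*Gm12446* (ENSMUSG00000087383, chromosome 4, 46300007 to 46345515) is annotated as antisense and overlaps *Foxe1*, with start sites 1906 bases apart. It had 1149 UMIs in 110 thyroid-like cells against 13 (163 and 0.236 CPM), a log2 ratio of 9.43 (8.65 to 10.34). The sources used here do not state whether the counting followed the strand, so reads of the overlapping pair may not be told apart. Of 12 annotated neighbours within 100 kb of the 5 markers, 8 reached 30 UMIs. *Gm12446* and *Ppp1r14c*, near *Iyd*, were at least 2-fold higher, and *Hemgn*, *Il1rn* and *Psd4* at least 2-fold lower.

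The 25 genes were ranked in 1 library, and the others offer cells that the ranking did not use. In the 4 WT cells 15 of the 25 had a UMI and 10 had none, 7 of which had UMIs in the other *Epcam*-positive cells of WT. All 25 summed to 51 UMIs where the level of the library labelled Tbx1neo2/neo2 would give 58.0, or 1098 CPM (817 to 1443) against 5.47 CPM. In the 6 Foxn11089/1089 cells 16 of the 25 had a UMI and 9 had none, all 9 of which had UMIs in the other cells. The 25 summed to 154 UMIs where 190.7 would be given, or 1009 CPM (856 to 1181) against 20.1 CPM. In the library of the ranking the sums were 1249 and 8.73 CPM. *Kcnh3* differed most clearly, with 2 UMIs in the Foxn11089/1089 cells and 0.163 times (0.0197 to 0.592) the level of the library labelled Tbx1neo2/neo2.

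RefSeq windows were found for 16 of the 25 genes. Of these 16, 5 (*Fam189a2*, *Igsf1*, *Kcnj16*, *Prlr* and *Slc4a5*) held the CTCAAG letters in at least 1 window, or 31.2%, against 15.2% of all 27025 genes. Of the 5 markers, 4 had a window and none held the letters. With 16 genes this is a description and not an excess.

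**Figure D3:**
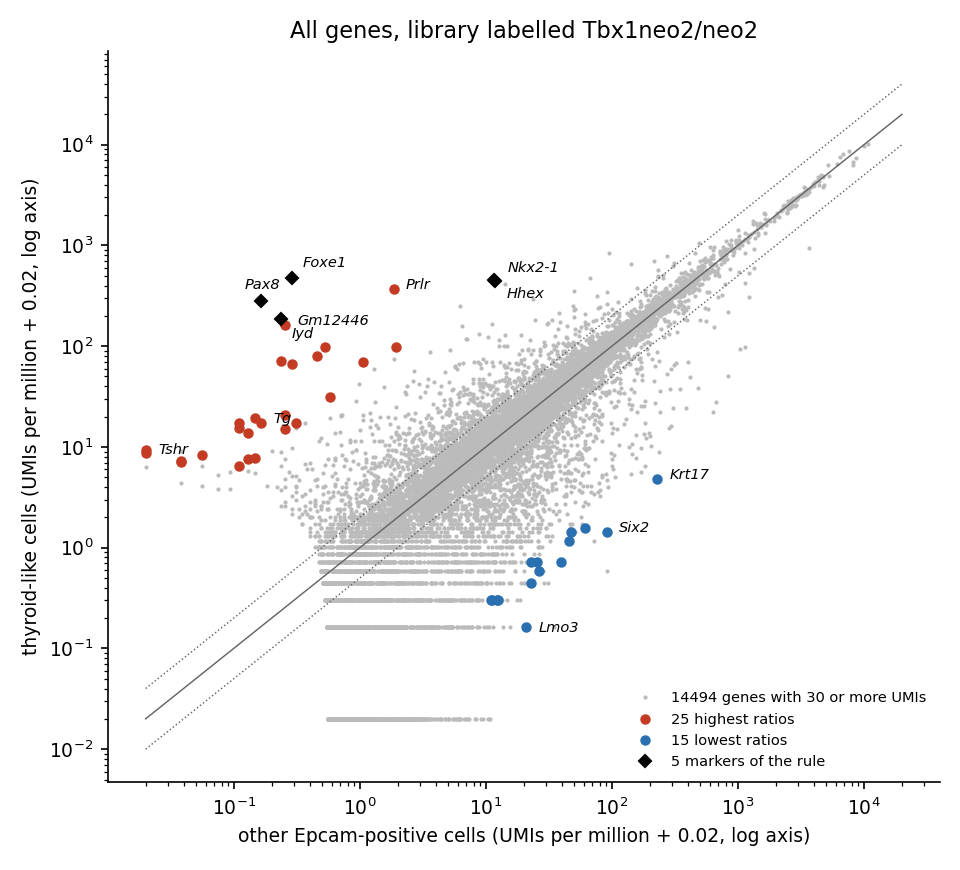
Level of each of 14494 genes in other *Epcam*-positive cells (x axis) and thyroid-like cells (y axis) of the library labelled Tbx1neo2/neo2, in CPM with 0.02 added, both axes on a log scale. Red points are the 25 highest ratios, blue points the 15 lowest and black diamonds the 5 markers of the rule; dotted lines mark a 2-fold difference. Most genes, 10604, lie between the dotted lines, and *Foxe1*, *Pax8* and *Prlr* stand far above the diagonal.

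A list of 20 markers of the epithelial cell cluster that the study named E-6 was also counted. The study drew it from these same libraries, so it is not independent evidence. Of the 20, 19 were at least 2-fold higher, and *Epcam* was between, but all 6 genes of the rule are among the 20. Those outside the rule included the metallothioneins *Mt1* (845 against 95.3 CPM, log2 ratio 3.15) and *Mt2* (411 against 14.1 CPM, 4.87), which bind zinc and copper. *Wfdc2*, a secreted protease inhibitor of lung and other epithelia, was 648 against 142 CPM, and *Mbip*, a kinase-binding inhibitory protein, 293 against 23.8 CPM. With any difference counted and no 2-fold limit, all 20 stood higher in the WT cells than in the other *Epcam*-positive cells of WT. In the Foxn11089/1089 library 19 of 20 did. The genes of the rule chose these cells too, and the share over all genes was not counted this way, so these counts are descriptions.

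Junction genes were mostly higher in thyroid-like cells than in the full comparison set. Of 16, 10 were at least 2-fold higher, 3 lower and 3 between, with a median log2 ratio of 1.38. The count higher was 8 of 16 when comparison cells with a UMI of *Pdgfra*, *Ptprc* or *Pecam1* were left out. The claudins, which seal tight junctions, made up 5 of the 10: *Cldn3* (129.5 against 19.0 CPM, log2 ratio 2.77), *Cldn6* (184 against 33.4 CPM, 2.46), *Cldn7* (248 against 49.2 CPM, 2.33), *Cldn4* and *Cldn10*. *Cdh16*, a cadherin of thyroid and kidney, had 68 UMIs in 41 cells against 15 (log2 ratio 5.15, 4.32 to 6.06). *Cdh1* was 85.3 against 72.9 CPM. The laminin receptor subunits parted: *Itga6* was higher (172 against 39.0 CPM, 2.14) and *Itga3* too, while *Itgb4*, the hemidesmosome subunit, was lower (2.55 against 21.3 CPM, -3.06). None of the 5 claudins was higher than in the 58 cells with *Nkx2-1* described further on. *Cldn3* stood at 0.50 times their level, *Cldn7* at 0.777 and *Cldn6* at 0.979. Of the other higher genes, *Cdh16*, *Tjp1*, *Itga3* and *Itga6* stood above the level of those cells and *Ocln* below it.

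Basement membrane genes were divided, with 3 of 14 higher (*Lamb2* and *Lama5* among them), 5 lower and 6 between. *Lamb2* was 27.8 against 8.07 CPM (log2 ratio 1.78) and *Nid2* 1.42 against 23.3 CPM (-4.04). Of the simple keratins, *Krt7* was higher (25.2 against 12.1 CPM) and *Krt8* and *Krt18* lower (428 against 1141 CPM and 532 against 1225 CPM), with *Krt19* between.

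Most listed genes of endoderm, pouches and thymus were lower in these cells than in the comparison cells. Of 16 measured regulators of endoderm and pouches, 12 were at least 2-fold lower, 3 higher and 1 between (median log2 ratio -2.35). *Pax1*, the paired-box factor of the pouches, had 158 UMIs in 17 thyroid-like cells against 35194 (22.4 and 639 CPM, log2 ratio -4.83, -5.07 to -4.61). *Eya1*, a transcriptional coactivator of pouch growth, was 14.7 against 31.2 CPM (-1.08, -1.38 to -0.79). *Tbx1* had 5 UMIs in 4 of the 113 cells against 291 UMIs, or 0.708 and 5.28 CPM. *Isl1*, which marks pharyngeal endoderm and heart progenitors, was 79.2 against 93.0 CPM, within 2-fold.

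Of the 3 higher regulators, *Nkx2-3*, a homeobox factor of pharyngeal and gut tissue, had 46 UMIs in 19 cells against 2 (log2 ratio 7.49, 5.55 to 10.58). Its relative *Nkx2-5* had 14 UMIs in 12 cells against 1, under the minimum. *Sox9*, found in many branching and budding epithelia, was 103 against 46.0 CPM in 97 cells. The third, *Sox17*, had 45 UMIs in only 4 cells, and without the 5 members that carried UMIs of other cell types its log2 ratio was -1.05 in place of 2.19. When the comparison was limited to the 609 cells with a *Foxn1* UMI, 7 of the regulators were lower in place of 12. *Foxa1*, *Foxa2*, *Sox2* and *Shh* then turned higher, with log2 ratios of 2.98, 2.53, 1.50 and 1.31. The full comparison set holds 58 cells with *Nkx2-1*, described further on, which had 614, 683, 1119 and 247 UMIs of these genes. The thyroid-like cells had 34, 26, 24 and 4. Most UMIs of *Foxa1*, *Foxa2*, *Sox2* and *Shh* in the full comparison set were in those 58 cells, so the lower calls of these genes do not describe the other comparison cells. Ratios with only the 58 cells left out were not tested.

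Of 16 thymic epithelial genes 15 were at least 2-fold lower, with a median log2 ratio of -3.87. *Foxn1* had 35 UMIs in 9 thyroid-like cells against 4603 (4.96 and 83.5 CPM), *Psmb11*, a proteasome subunit of cortical thymic epithelium, 38 against 4944, and *Krt5* 197 in 17 cells against 36979. A pair of thyroid-like cells held 11 and 16 of the *Foxn1* UMIs, 51 and 122 of the *Krt5* UMIs and 71 and 49 of the *Pax1* UMIs. Without the 5 members that carried UMIs of other cell types, which lowers *Foxn1* by construction, the log2 ratios were -6.21 for *Foxn1* in place of -4.05, -8.17 for *Krt5* in place of -4.58 and -6.86 for *Pax1* in place of -4.83. Their summed level per cell had a median of 204 CPM and a highest value of 6220 CPM, and 1 cell held 21.0% of the members' UMIs. *Cxcl12*, a chemokine on the same list, was 155 against 153.5 CPM. All 12 genes of antigen presentation and interferon response were at least 2-fold lower (median -2.75), from *B2m* (55.2 against 117 CPM) to *H2-Aa* (2.55 against 59.1 CPM). The count was 9 of 12 against cells with a *Foxn1* UMI, and 9 of 12 when comparison cells with a UMI of *Pdgfra*, *Ptprc* or *Pecam1* were left out. In the latter *B2m* had a log2 ratio of -0.19 in place of -1.08, and *Psmb8* turned higher, to 1.58. *B2m* was within 2-fold in 5 of the 13 alternatives. In the Foxn11089/1089 cells 3 of the 12 stood higher than in that library's other *Epcam*-positive cells.

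The 15 lowest ratios were ranked among genes found in at least 25% of the other *Epcam*-positive cells. *Six2* had 10 UMIs against 5013, *Krt17*, a keratin of basal cells, 34 against 12605, and *Lmo3*, a LIM-domain cofactor, 1 against 1145. The rest were *Sptssb*, *Atp8a2*, *Ppp1r16b*, *A730017C20Rik*, *Enho*, *Sv2b*, *Nell2*, *Cdh8*, *Pgam2*, *Tmc3*, *Adamts2* and *Epha3*. In the 4 WT cells the 15 genes summed to 5 UMIs, where the level of the library labelled Tbx1neo2/neo2 would give 0.685, or 108 CPM (34.9 to 251) against 898 CPM in the other *Epcam*-positive cells. In the 6 Foxn11089/1089 cells they summed to 1 UMI, or 6.55 CPM (0.166 to 36.5) against 412 CPM.

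**Figure D4:**
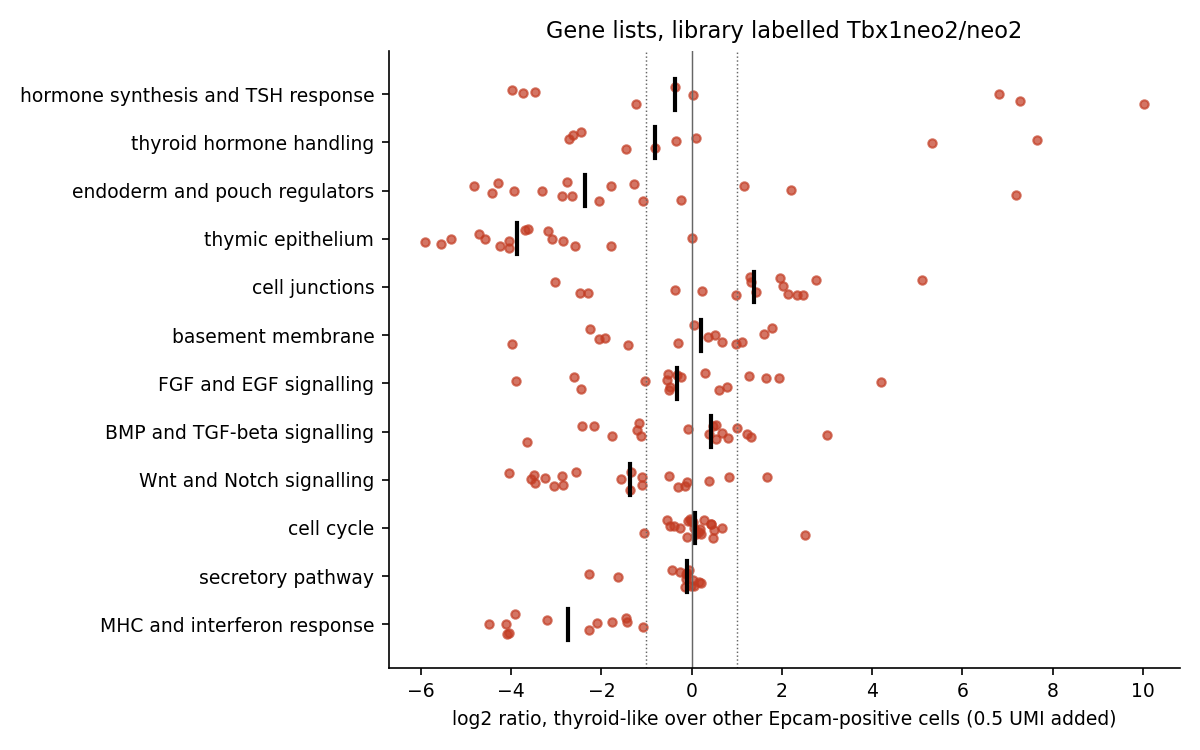
Log2 ratio of thyroid-like over other *Epcam*-positive cells in the library labelled Tbx1neo2/neo2, with 0.5 UMI added on both sides, for the genes of 12 lists with at least 30 UMIs. Each point is a gene, black bars are list medians and dotted lines mark 2-fold; medians run from -3.87 for thymic epithelium to 1.38 for cell junctions.

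Markers of other tissues that pharyngeal dissection could include were counted next. Of the parathyroid genes, *Gcm2*, *Pth* and *Casr*, which define that gland, had no UMI in the 113 cells. They were under the minimum of 30 UMIs over both sets, so the comparison cells held few as well and the zeros are no contrast with them. Of 6 measured, *Chga* (10 against 24 UMIs) and *Pla2g7* (19 against 63) were higher, 3 lower and 1 between. In the Foxn11089/1089 cells *Pth* had 10 UMIs, spread over 5 of 6 cells, beside a large parathyroid signal in that library's other cells (*Chga* 1704 CPM). Calcitonin-producing C cells settle in the thyroid later, and *Calca*, which encodes calcitonin, had 5 UMIs against 112, and *Chgb*, *Insm1* and *Calcr* had none, though *Ret* (42 UMIs in 29 cells against 20) and *Scg5* (22 against 31) were 2 of the 7 measured that stood higher, with 4 lower.

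Lung and airway genes share *Nkx2-1* with the thyroid, and 4 of 8 measured were higher, 2 lower and 2 between, *Nkx2-1* being a gene of the rule. *Sftpb* (ENSMUSG00000056370, chromosome 6, 72304610 to 72314371), a surfactant protein whose promoter is printed above, had 44 UMIs in 19 thyroid-like cells and none in the others, at least 114.5-fold higher. The cell with most held 20.5% of them. *Sftpc* had 1 UMI, and *Sftpd* and *Scgb1a1* none in any cell compared. *Foxp2* was 74.1 against 20.1 CPM and *Id2* 376 against 160 CPM.

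Of the remaining tissue lists, the 8 mesenchymal and the 8 hematopoietic genes were all at least 2-fold lower, with 1 cell holding 25.4% and 36.4% of the members' UMIs. The comparison cells were uneven too: 198 of the 1103 had at least 3 *Ptprc* UMIs and 148 at least 3 of *Pdgfra*. The median cell had 12.1 CPM of the hematopoietic genes among thyroid-like cells and 0 among the others, whose 90th percentile was 2079 CPM. For the mesenchymal genes the medians were 38.5 and 77.5 CPM, with a 90th percentile of 5560 CPM in the others. Of 8 endothelial genes 1 (*Tek*) was higher and 7 between, and a single member held 68.9% of their UMIs, while the median cell had 26.7 CPM and 35 of the 113 none. Of 8 neural genes 6 were lower and 2 between, of 6 measured hemoglobin and red cell genes 1 lower and 5 between. Of 4 measured muscle genes 1 (*Tnnt1*) was higher and 2 lower. Of 4 cartilage genes *Sox9*, *Col9a1* and *Matn4* were higher and *Col2a1*, the defining collagen of cartilage, lower (4.39 against 23.9 CPM). The part of RNA from other cells in these values was not tested.

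Cells outside the rule also held *Nkx2-1*, and they were set apart after the counts were known. In the library labelled Tbx1neo2/neo2, 58 other *Epcam*-positive cells had at least 3 UMIs of *Nkx2-1* and held 95.2% of the *Nkx2-1* UMIs outside the thyroid-like cells. Their *Nkx2-1* level was 211 CPM (194.5 to 228), and the thyroid-like cells had 2.11 times as much (1.94 to 2.31). They had no *Pax8* UMI, 1 of *Foxe1*, 1 of *Iyd*, 10 of *Hhex* and 3 of *Prlr*, among 2922307 UMIs in all. The rule itself limits these counts, apart from *Prlr*, since a cell with *Epcam* and *Nkx2-1* UMIs that was not chosen can have UMIs of at most 1 other marker. No name is given to them here.

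These 58 cells carried anterior endoderm factors that were low in the thyroid-like cells. *Foxa1* was 210.1 CPM in them and 4.82 CPM in thyroid-like cells, *Foxa2* 234 and 3.68 CPM, and *Sox2* 383 and 3.40 CPM. The signal *Shh* was 84.5 and 0.567 CPM, and *Tbx1* 55.4 and 0.708 CPM, a level 78.3 times as high (32.9 to 244). *Scgb3a2*, a secretoglobin of airway epithelium, had 103 UMIs in 17 of the cells and 1 in the thyroid-like cells. *Epcam*, *Cldn6* and *Wfdc2* lay within 1.10-fold of each other in both, while *Sox9* (17.8 and 103 CPM) and *Mt2* (2.05 and 411 CPM) were higher in thyroid-like cells.

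**Figure D5:**
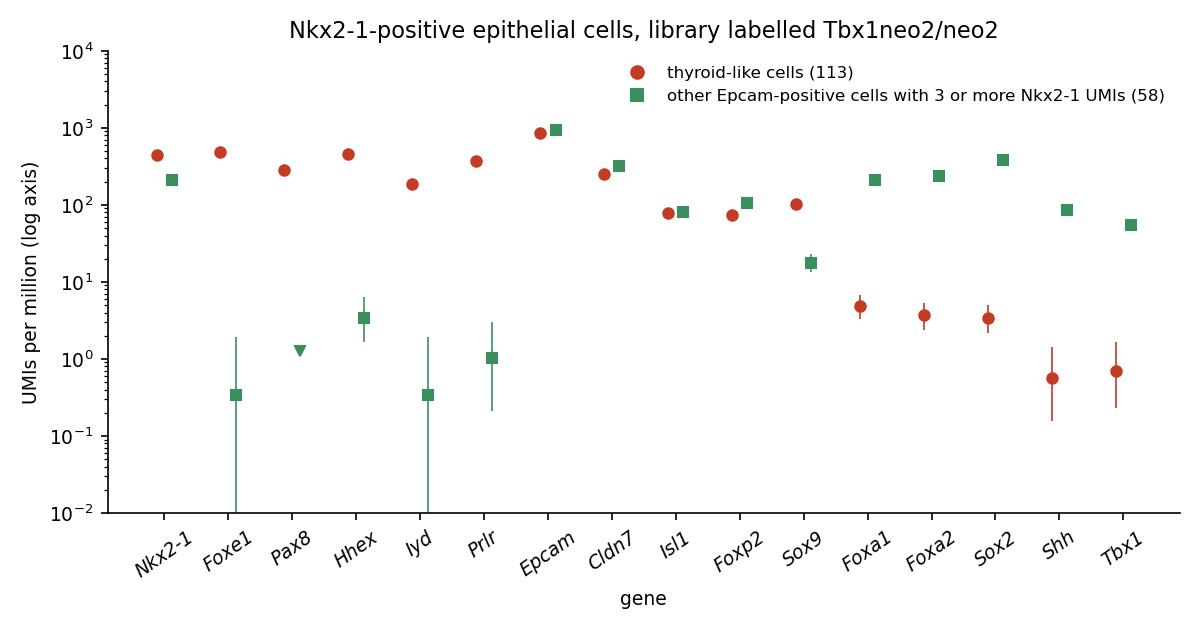
Levels of 16 genes in CPM (log axis) in the 113 thyroid-like cells (red circles) and the 58 other *Epcam*-positive cells with at least 3 *Nkx2-1* UMIs (green squares) of the library labelled Tbx1neo2/neo2, with 95% Poisson intervals; the triangle is the upper bound of a gene with no UMI. *Foxe1*, *Pax8*, *Hhex* and *Iyd*, which the rule used, and *Prlr* stand high in the first set, and *Foxa1*, *Foxa2*, *Sox2*, *Shh* and *Tbx1* in the second.

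Signalling genes were lower in the thyroid-like cells for one group and mixed for the others. Of 21 genes of Wnt and Notch signalling 14 were at least 2-fold lower, 1 higher and 6 between (median log2 ratio -1.36). *Notch1* was 11.3 against 83.5 CPM, *Hey1*, a Notch target, 15.2 against 110.2 CPM, and *Sfrp1*, a secreted Wnt inhibitor, 2.27 against 38.4 CPM. The ligand *Wnt5a* was the higher one, with 64.5 against 20.2 CPM in 94 cells.

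Of 18 genes of BMP and TGF-beta signalling, 3 were higher, 7 lower and 8 between, with a median of 0.42. The ligand *Bmp5* had 242 UMIs in 82 cells (34.3 against 4.26 CPM, log2 ratio 3.01, 2.74 to 3.27), whereas *Bmp4* and *Bmp7* were lower (-1.79 and -1.21). *Tgfb1* was 4.39 against 55.7 CPM. Of the BMP target genes *Id2* was at least 2-fold higher, and the inhibitor *Nog* had 27 UMIs against 86 (log2 ratio 1.29).

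Of 17 measured genes of FGF and EGF signalling 4 were higher, 4 lower and 9 between. The ligand *Areg* had 36 UMIs in 22 cells against 15 (log2 ratio 4.23, 3.32 to 5.20), the receptor *Erbb3* was 40.5 against 10.5 CPM, and *Egfr*, the receptor of *Areg*, had 5 UMIs against 638. *Fgf1* and *Spry1*, a feedback inhibitor, were higher too. Of 10 angiogenic factors, *Pgf* (16.3 against 3.74 CPM, 2.12) was higher, *Angpt1*, *Sema3c* and *Adm* lower and 6 between, *Vegfa* among them with 62.2 against 43.5 CPM.

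The cell cycle and the secretory pathway set these cells little apart. Of 22 cell cycle genes 20 lay within 2-fold, with a median of 0.07. *Mki67* was 307 against 218 CPM in 89 cells and *Top2a* 426 against 458 CPM. The exceptions were *Ccnd1*, the cyclin of G1 (215 against 38.0 CPM, log2 ratio 2.50, 2.41 to 2.60), and *Cdkn1a*, an inhibitor of cyclin-dependent kinases (24.9 against 51.7 CPM, -1.05). *Ccnd1* was 280 CPM in the WT cells and 275 CPM in the Foxn11089/1089 cells. Of 14 genes of the secretory pathway 12 were within 2-fold, the chaperones *Hspa5* (559 against 584 CPM) and *Hsp90b1* among them, and the factors *Xbp1* (38.4 against 119 CPM) and *Creb3l1* were lower.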

How the data were processed

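Single cells of embryonic thymic lobes were captured in 3 droplet libraries with 10x 3′ chemistry, and the authors deposited raw UMI counts per gene and cell for 27998 genes, made with Cell Ranger 3.0.0 on mm10 as the submitters' processing notes list. From these counts, barcodes were filtered as described above and UMIs were summed over cells and scaled to CPM. Totals were 82936619, 137498422 and 204655055 UMIs in WT, the library labelled Tbx1neo2/neo2 and Foxn11089/1089. Intervals are exact Poisson (levels), Clopper-Pearson (shares) and conditional exact binomial (ratios), all at 95%, and cover counting error only, since cells are not replicates. A gene with at least 30 UMIs over both sets was counted as higher or lower at a 2-fold ratio with 0.5 UMI added on both sides. Genes are named if they chose the cells, were targeted, were in the pathway or tissue lists, or were the 25 highest and 15 lowest ratios among genes found in at least 25% of thyroid-like or of other *Epcam*-positive cells, respectively, leaving out mitochondrial, ribosomal, hemoglobin, Y-linked genes and *Xist*. Values of some list members are not reported here, though the list counts include them. Neighbours of the markers were named by position. The cells and lists were chosen with earlier results of these data known. Likely doublets, the top-scoring 0.8% per 1000 barcodes in Scrublet (scanpy 1.11.5), stayed in. Alternatives varied the depth, limits, scaling, comparison cells and added counts. The steps were tested on simulated data and run in Python 3.11.15 (anndata 0.12.19, pandas 2.3.3, scipy 1.17.1, numpy 2.4.6), and plots were drawn with matplotlib 3.10.9.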

Additional observations from a re-analysis of the deposited data

Results flagged for a closer look

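Outside the *Epcam* requirement, 10 kept cells of the library labelled Tbx1neo2/neo2 had at least 3 thyroid markers, or 0.423% (0.203 to 0.777%) of 2363 cells without an *Epcam* UMI. WT had 0 of 2517, with an upper Clopper-Pearson limit of 0.147% (0.119% for 3 counts), and the Foxn11089/1089 library 0 of 3379, with 0.109% (0.0888%). Of the 10 cells, 9 had under 10000 UMIs, and their median was 4048.

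For several genes the ratio of thyroid-like over other *Epcam*-positive cells had an interval on opposite sides of 0 in 2 libraries. None of these differences was tested, and the WT and Foxn11089/1089 values rest on 4 and 6 cells. *Sox9* had a log2 ratio of -1.02 in the Foxn11089/1089 library, from 10 UMIs against 14289, and 1.16 in the library labelled Tbx1neo2/neo2. *Chga* had 0 UMIs in the WT cells against 8816 in the others, and a log2 ratio of -8.02 in the Foxn11089/1089 library, beside 1.70 in the library labelled Tbx1neo2/neo2. *Pla2g7* had 0 UMIs in the Foxn11089/1089 cells against 14052, beside a log2 ratio of 1.24. *Krt18* was 0.43 there against -1.20, *Fn1* 0.74 against -0.30, *Id1* -0.37 against 0.82 and *Hspa5* 0.48 against -0.06. In WT, *Birc5* was -1.44 against 0.28, from 6 UMIs, and *Cdkn1c* 1.16 against -0.39, from 20 UMIs.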

How the results depend on the processing

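No paired analysis was possible because each genotype has 1 library. The share of thyroid-like cells in the library labelled Tbx1neo2/neo2, 9.29%, was 11.4% with cells thinned to 10000 UMIs, 12.4% with at least 3 *Epcam* UMIs and 12.6% without cells carrying at least 3 UMIs of *Ptprc*, *Pecam1* or *Pdgfra*, an alternative chosen after seeing the data. The other 27 of 30 share values, over the 3 libraries, stayed within the intervals of the reported shares. For WT and the Foxn11089/1089 library those intervals rest on 4 and 6 cells and are wide, so staying within them says little. The WT share, 0.164%, was 0.0501% from 1 cell after thinning to 10000 UMIs and still lay within its interval. Thinning to 10000 UMIs leaves out shallower cells, among them 3 of the 4 thyroid-like cells of WT. Genes at least 2-fold higher, 1082, were 3296 with no minimum of 30 UMIs and 717 after thinning to 10000 UMIs. Genes lower, 2808, were 1857 against cells with no UMI of *Pdgfra*, *Ptprc* or *Pecam1*. The higher share of calls, 27.8%, became 39.5% against cells with a *Foxn1* UMI, 39.2% against cells with no *Pdgfra*, *Ptprc* or *Pecam1* UMI and 47.1% with no minimum. Lower hormone synthesis genes, 4 of 9 measured, were 2 of 3 after thinning. Lower hormone handling genes, 4 of 9, were 2 of 9 with 1 CPM added, 2 of 5 after thinning and 2 of 6 against both limited comparison sets. Lower pouch regulators, 12 of 16, were 7 of 15 against cells with a *Foxn1* UMI. Against those cells these log2 ratios reversed: *Slco4a1* 2.52, *Foxa1* 2.98, *Foxa2* 2.53, *Sox2* 1.50, *Shh* 1.31, *Gata3* 0.42, *Scgb3a2* 3.81 and *Lef1* 0.10. Against cells with no *Pdgfra*, *Ptprc* or *Pecam1* UMI the reversals were *Slco4a1* 1.87, *Gata6* 0.41, *Gata3* 0.73, *Fam20a* 1.26, *Nid1* 0.56, *Lef1* 0.27 and *Psmb8* 1.58, and without members carrying UMIs of other cell types *Sox17* -1.05. The cause of these changes was not tested. Of 183 named genes at least 2-fold apart, 143 had a ratio past 2-fold the same way in all 13 alternatives, and so had all 40 ranked genes, whether or not they reached the minimum of UMIs there. Alternatives that change only the minimum of UMIs cannot move a ratio. The 40 genes were picked for extreme ratios in these same cells, so their count is a description. With male-type cells only on both sides, also chosen after seeing the data, 1014 genes were higher and 2606 lower.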
